A study of Equus caballus with 6 samples.

Results

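The glucocorticoid receptor gene NR3C1, its mineralocorticoid relative NR3C2, the HSP90 cochaperone FKBP4 and the coactivator NCOA2 were read above background in the testes of all 6 stallions, and none of them passed the test between dexamethasone and saline. The set described here holds 10 genes of the receptor and of cortisol metabolism, NR3C1, NR3C2, HSD11B1, HSD11B2, FKBP4, FKBP5, PTGES3, NCOA1, NCOA2 and NCOR1. They were taken by gene symbol and not by their values, as the array probes whose annotation names exactly 1 of these symbols. This gave 13 probes for 9 of the 10 genes, among 18278 genes so named on the array. NCOR1 was not analysed here because no probe in the annotation used is listed under its symbol alone.

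The tissue was minced testicular parenchyma of adult stallions (Equus caballus) used to the clinic for 10 days beforehand. The dexamethasone group (n = 3) received 0.1 mg/kg dexamethasone, a synthetic glucocorticoid, into a vein, and the control group (n = 3) received saline of equal volume. Testes were taken 12 h later in both groups, and each stallion gave 1 array of the human CodeLink platform, so human probes read horse RNA. Stallions are numbered within each group in the order of the samples, and these numbers are not those of the sample titles. The labels name neither breed nor exact age, and 1 dose at 1 time limits the groups as a model of glucocorticoid exposure.

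Cortisol acts through the glucocorticoid receptor, a transcription factor held ready for hormone in the cytoplasm by the chaperone HSP90 and its cochaperones. FKBP5 in this complex lowers the affinity for hormone, whereas FKBP4 links the bound receptor to its transport to the nucleus, and PTGES3 (p23) steadies the complex. In the nucleus the receptor recruits coactivators such as NCOA1 and NCOA2 or corepressors such as NCOR1. Before cortisol reaches the receptor, HSD11B1 can regenerate it from inactive cortisone and HSD11B2 can inactivate it, and in rodents both enzymes have been described in Leydig cells, the cells of the testis that make testosterone. Dexamethasone binds NR3C1 strongly and NR3C2 more weakly.

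A spot is called above background when its signal strength, the spot mean divided by the noise level of the spot, exceeds 1. Of the 53423 gene probes, 22690 to 25537 were above background per array, the arrays correlated at 0.982 to 0.989 over the 15 pairs (across probes, which are not independent replicates), and the number of arrays limits the precision. Against the tissue label, probes of 7 of 8 Leydig cell genes, 7 of 8 Sertoli cell genes and 6 of 12 germ cell genes (10 with a probe) were above background on at least 3 arrays, among them LHCGR, AMH, DAZL and LDHC. The Sertoli gene SOX9 and the germ cell genes DDX4, TNP1, PRM2 and PGK2 were above background on 0 arrays, as were the liver genes ALB and APOA1. Of other cell types, 2 of 5 peritubular myoid, 1 of 4 macrophage, 3 of 4 endothelial and 3 of 3 lymphocyte genes were above background on at least 3 arrays. So were 2 of 3 genes of kidney epithelium, SCNN1B and AQP2. Over all gene probes 46.2% were above background on at least 3 arrays, whereas a gene with several probes counts here by its best one.

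Detection divided the set by gene and by probe. Of the 13 probes, 5 were above background on all 6 arrays and 6 on none, and the remaining 2 on 1 array each. Over all gene probes 35.1% were above background on all 6 arrays and 44.5% on none. The 8 probes not read in at least 3 stallions had signal strengths of 0.534 to 1.04, and 2 of their 48 spots were above background. A human probe that stays dim on horse RNA does not show that the transcript is rare, and the match of each probe to its horse transcript was not tested. All 10 genes have a horse gene of the same symbol in the RefSeq gene table of the assembly TB-T2T.

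**Figure D1:**
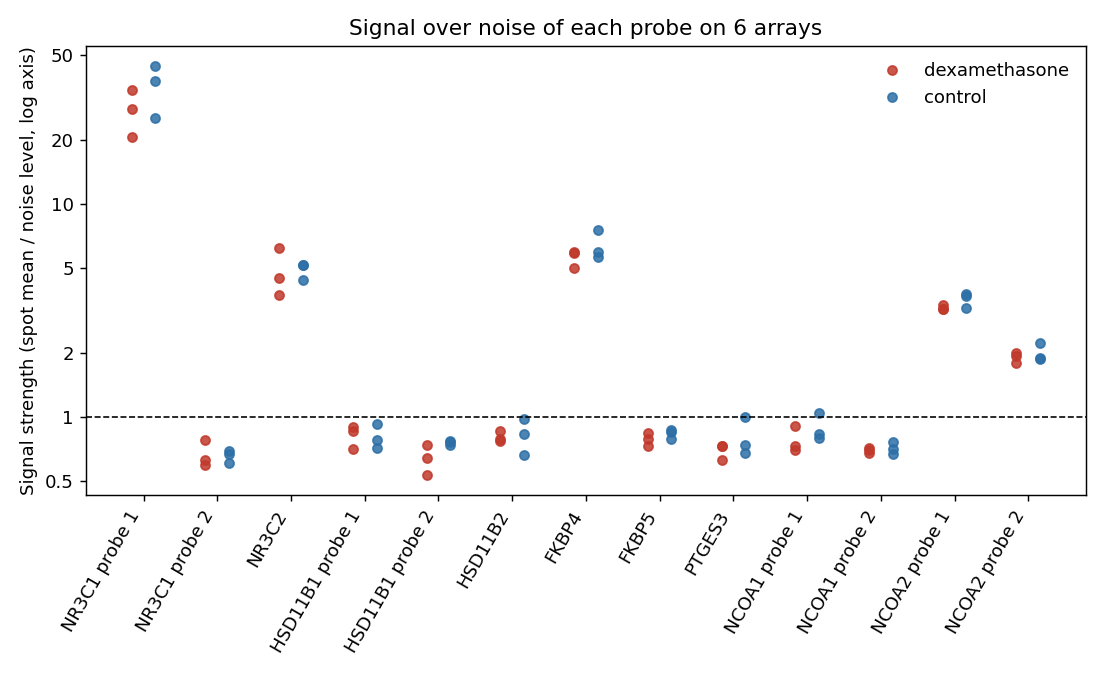
Signal strength (spot mean over noise level, log axis) of the 13 probes, with 1 point per stallion, dexamethasone in red and control in blue; probes of a gene are numbered from the brighter one. The dashed line marks 1, above which a spot counts as above background: NR3C1 probe 1, NR3C2, FKBP4 and both NCOA2 probes lie above it in every stallion.

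The enzymes that set the local cortisol supply were not above background on any array. The brighter HSD11B1 probe had signal strengths of 0.892, 0.704 and 0.854 in the dexamethasone stallions, against 0.715, 0.928 and 0.777 in the control stallions. The HSD11B2 probe had 0.790, 0.859 and 0.766 in the dexamethasone stallions and 0.978, 0.663 and 0.827 in the controls. No array of either group reached the limit for these genes, so no fold change is given for them. The second HSD11B1 probe lay between 0.534 and 0.769 on all arrays.

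The receptor gene NR3C1 had 1 bright and 1 dim probe. The bright probe, annotated to a RefSeq mRNA, had spot means of 1726 to 3861 over backgrounds of 45 to 52, with signal strengths of 20.7 to 44.4. The dim probe, annotated to another GenBank entry of the same gene, had signal strengths of 0.594 to 0.777 and was above background on 0 arrays. On the bright probe the normalised log2 intensity was 11.49, 10.89 and 11.21 in dexamethasone stallions 1, 2 and 3, against 11.66, 11.48 and 10.94 in control stallions 1, 2 and 3. The groups overlapped: dexamethasone stallion 2 and control stallion 3 were the low animals, and control stallion 1 was the highest. The intensities as scaled by the authors kept that picture, at 95.4, 69.0 and 90.2 in the dexamethasone stallions and 124, 107 and 73.3 in the control stallions.

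NR3C1 averaged 11.20 ± 0.30 in dexamethasone stallions and 11.36 ± 0.37 in control stallions (SD, n = 3 each). The difference, dexamethasone minus control, was -0.16 ± 0.19 on the log2 scale (limma's moderated SE), a ratio of 0.895 with a 95% interval from 0.664 to 1.21. In limma's fit over all 24590 probes tested its adjusted p was 0.999. Over these probes 0.00407% passed an adjusted p of 0.05 and 3.29% an unadjusted p of 0.05, and the members passed with 0 of 5 probes on either rule. In bulk tissue, a change in the number of cells that express a gene and a change in RNA per cell cannot be told apart.

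The NR3C1 difference varied with single animals. It was -0.01 without dexamethasone replicate 2 or without control replicate 1, -0.31 without dexamethasone replicate 1 and -0.37 without control replicate 3. The slide numbers of the arrays form 2 runs, of 4 and 2 arrays, each with equal numbers of both groups. Within the first run (2 stallions against 2) NR3C1 differed by -0.38 and within the second (1 against 1) by 0.27, of opposite sign, and with the run as a block by -0.16 ± 0.18 (SE). Median scaling gave -0.30, but it also moved the median difference of all tested probes from -0.0068 to -0.083.

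**Figure D2:**
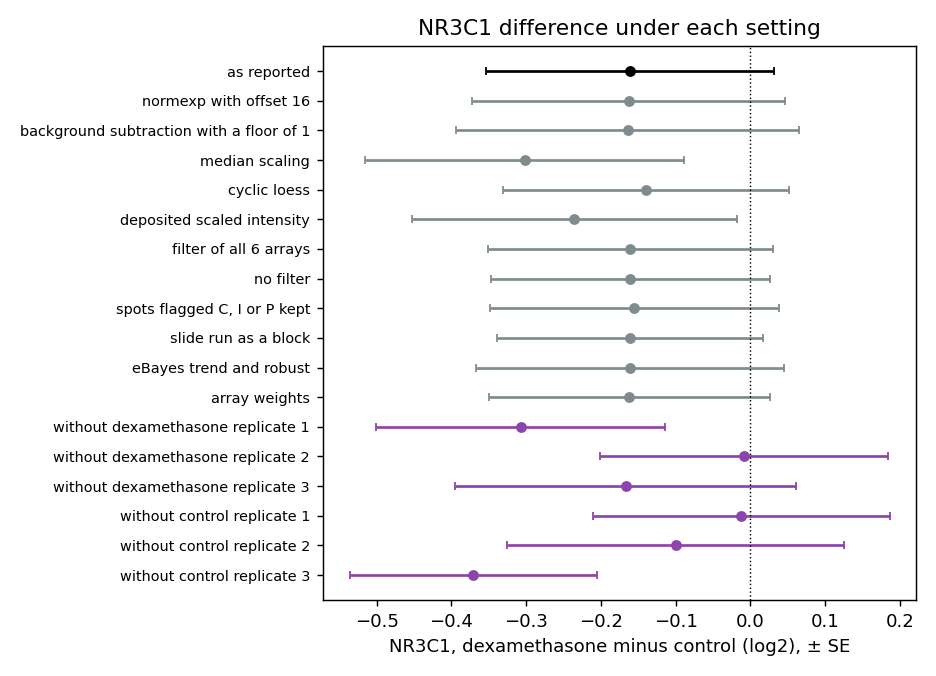
Difference of NR3C1, dexamethasone minus control (log2), with its SE under each setting: as reported (black), with other processing (grey) and without each stallion in turn (purple). All points lie below 0, and the points without dexamethasone replicate 2 or control replicate 1 lie next to 0.

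The mineralocorticoid receptor gene NR3C2, whose product binds cortisol and aldosterone, was above background in every stallion with signal strengths of 3.74 to 6.25. Its log2 intensity was 8.24, 9.10 and 8.60 in dexamethasone stallions 1, 2 and 3, and 8.46, 8.61 and 8.71 in control stallions 1, 2 and 3. The dexamethasone group held both the lowest and the highest animal, and the control values lay between them. The difference was 0.05 ± 0.18 (SE, limma adjusted p = 0.999), with a ratio of 1.04 and an interval from 0.783 to 1.38. Its sign turned without dexamethasone replicate 2 (-0.17), without control replicate 1 (-0.0098), under median scaling (-0.06) and in the scaling of the authors (-0.0074).

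Dexamethasone stallion 2 had the lowest NR3C1 and the highest NR3C2 value of the 6 animals. The log2 difference of the leading probes, NR3C1 minus NR3C2, was 3.25, 1.79 and 2.61 in the dexamethasone stallions and 3.19, 2.88 and 2.23 in the control stallions. Its absolute size depends on the probes, and only its variation between animals can be read, here from 1.79 to 3.25. The mean was 2.55 ± 0.73 in dexamethasone stallions and 2.77 ± 0.49 in control stallions (SD, n = 3 each).

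Of the 3 cochaperones among the 10 genes, FKBP4 alone gave a reading in every stallion. Its log2 intensity was 9.001, 8.87 and 8.99 in the dexamethasone stallions, against 9.08, 8.74 and 9.08 in the controls. The dexamethasone values fell within the range of the controls. The difference was -0.01 ± 0.11 (SE, limma adjusted p = 0.999), and the interval of the ratio ran from 0.838 to 1.17.

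The FKBP5 probe had signal strengths of 0.840, 0.726 and 0.784 in the dexamethasone stallions and 0.791, 0.852 and 0.871 in the controls, not above background on any array. FKBP5 is also a widely used transcriptional target of the receptor, and whether its transcript differed between the groups could not be read from this probe. PTGES3 had signal strengths of 0.628, 0.727 and 0.729 in the dexamethasone stallions and 0.741, 0.674 and 1.002 in the controls, and control stallion 3 was the only animal above background. With the dexamethasone values raised to the lowest intensity above background on each array, the log2 ratio of controls over dexamethasone stallions was -0.09, so no fold is given.

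The coactivator NCOA2 was read by 2 probes, both annotated to a RefSeq mRNA and above background in every stallion. The brighter one had log2 intensities of 7.98, 8.09 and 8.20 in the dexamethasone stallions, against 8.10, 8.07 and 8.10 in the controls, a difference of -0.0045 ± 0.087 (SE, limma adjusted p = 0.999). The dimmer one had 7.10, 7.41 and 7.28 in the dexamethasone stallions and 7.14, 7.32 and 7.42 in the controls, a difference of -0.03 ± 0.11 (SE, limma adjusted p = 0.999). Dexamethasone stallion 1 was the lowest animal on either probe, while the highest animal differed between them. The intervals of the ratio were 0.871 to 1.14 and 0.827 to 1.16.

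The related coactivator NCOA1 was above background on 1 array, that of control stallion 1. Its brighter probe had signal strengths of 0.698, 0.908 and 0.727 in the dexamethasone stallions and 1.04, 0.828 and 0.794 in the controls. Dexamethasone values below the lowest intensity above background on their array were raised to it. The log2 ratio of controls over dexamethasone stallions was then -0.11, and no fold is given. The second NCOA1 probe was above background on 0 arrays.

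**Figure D3:**
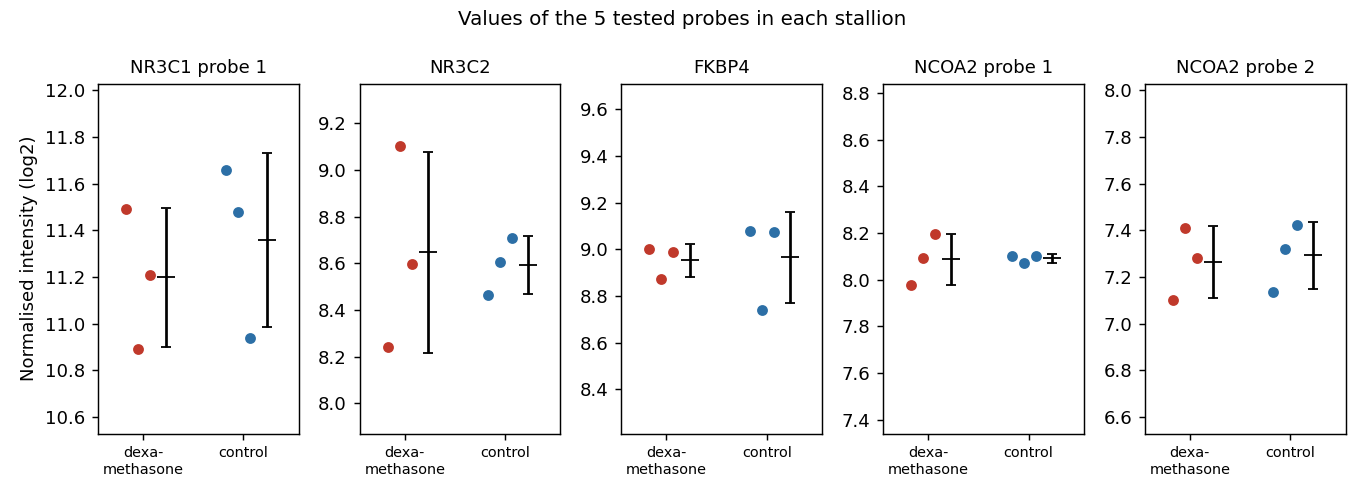
Normalised log2 intensity of the 5 tested probes, 1 point per stallion (replicates 1 to 3 from left to right), dexamethasone in red and control in blue, with mean and SD in black; every panel spans 1.5 log2 units. The groups overlap in each panel, and the spread is widest for NR3C1 and for NR3C2 in the dexamethasone stallions.

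The groups overlapped for all 5 tested probes, whereas 9.27% of all tested probes had groups that did not. Of the 5 differences 4 were below 0, against 52.5% of all tested probes. Every one of them lay between the 5th and 95th percentile of all differences, -0.19 and 0.18. For a single probe, the smallest two-sided p that an exact permutation over these 6 animals allows is 0.1.

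The genes that work with these members were taken from 5 lists of the pathway, 98 genes in all, of which 83 had a probe and 46 were tested. These lists were chosen with earlier results of the data known. The brightest tested probe stands for a gene. None passed limma's adjusted p, and 1 of the 46 (2.17%) passed an unadjusted p of 0.05, near the background of 3.29%. The groups did not overlap for 4 genes (8.70%), against 9.27% of all tested probes. Of the 46 genes 27 (58.7%) lay lower, against 52.5% of all tested probes. Over all 54 tested probes of these genes, 2 (3.70%) passed the unadjusted p. That count includes the dimmer of the tested H6PD probes, which met the filter through the control stallions alone.

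Of 20 genes of the HSP90 machine, which folds the receptor for hormone, 7 were tested, with 4 higher and 3 lower and a median difference of 0.02, against -0.01 for all tested probes. HSPA8, the constitutive HSP70 that loads clients, had log2 intensities of 11.85, 11.98 and 12.18 in the dexamethasone stallions and 12.16, 12.26 and 12.25 in the controls, and differed by -0.22 ± 0.10 (SE). The groups overlapped through dexamethasone stallion 3. NUDC, a nuclear distribution protein that binds HSP90, differed by 0.16 ± 0.08 and PPID, cyclophilin 40 of receptor complexes, by -0.18 ± 0.11 (SE). The NUDC groups did not overlap. A second PPID probe differed by -0.01 ± 0.12. HSP90AA1 was read above background in all 6 stallions by 2 probes, which differed by 0.11 ± 0.09 and -0.06 ± 0.18 (SE). The probes of HSP90AB1, STIP1 and CDC37 were above background on 0 arrays.

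Of 28 coactivators and corepressors 22 were tested, 9 higher and 13 lower, with a median difference of -0.03. NRIP1, a corepressor of nuclear receptors, differed by 0.20 ± 0.10 (SE). HEXIM1, an inhibitor of transcription elongation that also binds the receptor, differed by -0.13 ± 0.08, with groups that did not overlap. CREBBP, a histone acetyltransferase, had 6.26, 5.93 and 6.50 in the dexamethasone stallions and 6.35, 6.49 and 6.43 in the controls, and the groups overlapped. It exceeded background in 1 of 3 treated animals against 3 of 3 controls, so it met the filter mainly through its controls, and its difference is given as a description (-0.19, or -0.044 without dexamethasone replicate 2 and -0.33 without dexamethasone replicate 3). EP300, its relative, differed by 0.03 ± 0.11 (SE).

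In the list of cortisol metabolism and transport 3 of 21 genes were tested, and 12 had probes above background on 0 arrays, among them the 5-alpha-reductase SRD5A1, the aldo-keto reductase AKR1C3 and the 21-hydroxylase CYP21A2. AKR1C4, a hepatic 3-alpha-hydroxysteroid dehydrogenase in humans, averaged 11.39 in dexamethasone stallions and 11.56 in control stallions (log2). It differed by -0.17 ± 0.11 (SE), or by -0.091 without dexamethasone replicate 2 and -0.27 without dexamethasone replicate 3. Whether this human probe reads a horse AKR1C4 transcript was not tested. SERPINA6, the plasma globulin that carries cortisol, differed by -0.05 ± 0.10 (SE) and changed sign without dexamethasone replicate 2 (0.031) and without control replicate 1 (0.013). H6PD, which supplies HSD11B1 with NADPH in the endoplasmic reticulum, had 2 probes tested. The brighter one differed by 0.10 ± 0.10 (SE), with 0.0034 without control replicate 2 and 0.17 without control replicate 3. The dimmer one, singled out after its values were seen, had 6.24, 6.30 and 6.24 in the dexamethasone stallions and 6.53, 6.49 and 6.58 in the controls. It exceeded background in 0 of 3 treated animals against 3 of 3 controls and passed the filter through the controls alone, so its values are given as a description only.

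The other steroid hormone receptors share chaperones with NR3C1, and 3 of the 4 were tested. ESR2 differed by -0.07 ± 0.10, PGR by 0.02 ± 0.09 and ESR1, read in 1 of 3 treated animals and 2 of 3 controls, by -0.03 ± 0.19 (SE). Of 25 genes of receptor import, modification and turnover 11 were tested, 4 higher and 7 lower, with a median of -0.06 that ran from -0.12 without dexamethasone replicate 2 to 0.041 without dexamethasone replicate 1 and was 0.0078 with no filter on dim probes. CALR, calreticulin, a calcium-binding chaperone that can bind the receptor's DNA-binding domain, had 10.84, 10.40 and 10.73 in the dexamethasone stallions and 10.88, 10.97 and 10.92 in the controls. Its difference of -0.27 ± 0.11 (SE) is the 1 that passed an unadjusted p (0.0422, limma adjusted p = 0.999), and it was -0.14 without dexamethasone replicate 2. The CALR groups did not overlap. CDK5, a kinase that phosphorylates the receptor, differed by -0.10 ± 0.08 and KPNB1, importin beta, by 0.15 ± 0.14 (SE). The CDK5 groups did not overlap. The KPNB1 difference was 0.040 without dexamethasone replicate 2, 0.052 without control replicate 3 and 0.27 without dexamethasone replicate 1.

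**Figure D4:**
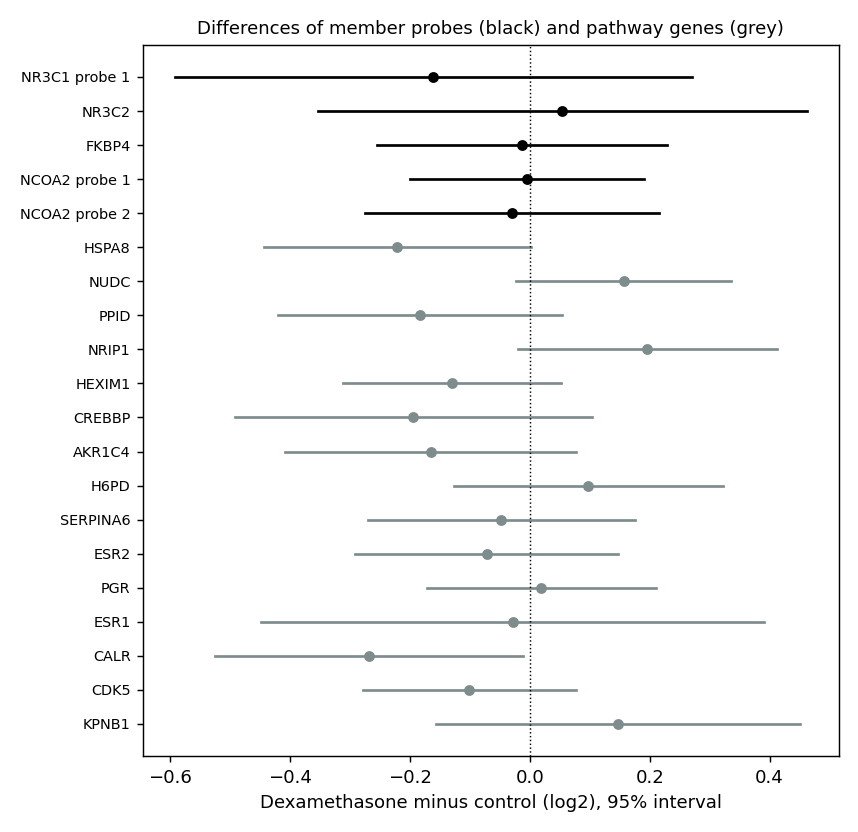
Difference, dexamethasone minus control (log2), with its 95% interval for the 5 tested member probes (black) and for up to 3 genes with the smallest p in each pathway list (grey). The interval of CALR alone excludes 0 before adjustment; NR3C1 has the widest interval.

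The genes whose readings over the 6 arrays were most like NR3C1 were SPA17, PRR14L and CTAGE3P, with Pearson's r of 0.978, 0.977 and 0.967. They were sought among 1256 named probes above background on all arrays with an SD of at least 0.2, of which 0.813% had r over 0.9. PRR14L had log2 intensities of 10.70, 10.32 and 10.58 in the dexamethasone stallions and 10.80, 10.80 and 10.33 in the controls, low in the same animals as NR3C1. The points share 6 arrays and their normalisation, and with so few the likeness is a description.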

How the data were processed

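One-colour CodeLink arrays of 6 stallions were used, 3 per group, as the labels give them. Per the file headers, the authors deposited, per spot, a mean intensity, a median background, a scaled intensity and a quality flag. A signal strength score per spot is also deposited, which equals spot mean over noise level. From the values, the scaled intensity is the background-subtracted one divided by a constant per array. The labels do not name the scanner software. The members and lists were chosen with earlier results of these data known.

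Intensities were corrected with normexp (offset 50), quantile normalised and expressed as log2 (limma 3.58.1, R 4.3.3). Between the background correction and the quantile normalisation, spots flagged C, I or P were set missing and control spots were left out. Control spots were those with a repeated probe name (94 names), and they included the 631 blank spots. Of 53423 gene probes 23472 have 1 symbol, 905 several and 29046 are not listed. A probe was tested if above background on at least 3 of 6 arrays with at least 2 values per group, using lmFit and eBayes, two-sided, with Benjamini-Hochberg adjustment. The brightest probe leads a gene. From each list up to 3 genes with the smallest p are named. Below-background bounds use the lowest intensity above background per array, or the measured value where that is higher, averaged as normalised log2 values. In simulated data over 24590 probes with 200 changed in the dexamethasone against control comparison, the test recovered 56.7% of the changes of 1.5-fold, 95.5% of those of 2-fold and 100% of those of 4-fold. These shares need not hold for a single probe. They belong to a setting with 200 changed probes. In the data 1 probe passed, and the next smallest limma adjusted p was 0.884. The Benjamini-Hochberg cutoff is stricter where fewer probes change, so the shares cannot say which changes of the members would have been found. The SE was 0.19 for NR3C1 and 0.18 for NR3C2, against a median of 0.0996 over all tested probes. Near background the offset compresses differences. In the balance HSD11B1 minus HSD11B2 neither probe was above background, and in FKBP4 minus FKBP5 the FKBP5 probe was not. Both balances are not given. No per-sample column was left unmapped. Figures were drawn with matplotlib 3.10.9.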

Additional observations from a re-analysis of the deposited data

How the results depend on the processing

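Other background corrections, normalisations, filters and variance models and the omission of each stallion were tried, 85 values for the members and none past limma's adjusted p. The sign changed in 15 of them, and in each the cause was not tested. NR3C2 was -0.061 under median scaling and -0.0074 in the scaling of the authors, NCOA2 was 0.0012 with cyclic loess and 0.00091 with array weights, and FKBP4 was 0.0055 with array weights. Without each replicate in turn NR3C1 ran from -0.37 to -0.0082, NR3C2 from -0.17 to 0.26, FKBP4 from -0.12 to 0.045, NCOA2 from -0.059 to 0.051 and its second probe from -0.11 to 0.052. Among named pathway genes ESR1 was 0.11 with background subtraction and 0.10 in the scaling of the authors, and under median scaling PGR was -0.0033 and KPNB1 -0.015. Leaving out each replicate gave SERPINA6 -0.094 to 0.031, PGR -0.014 to 0.066, ESR1 -0.25 to 0.10 and ESR2 -0.15 to 0.0030. CREBBP was -0.78 with background subtraction. The median of the HSP90 list was -0.13 under median scaling, -0.059 in the scaling of the authors and -0.095 with the mean of a gene's probes, and -0.078 to 0.032 without each replicate. That of coactivators and corepressors was -0.12, -0.10 and, without each replicate, -0.043 to 0.0085. Without each replicate the median of cortisol metabolism ran from -0.094 to 0.031 and that of the other steroid receptors from -0.067 to 0.024.

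The count past adjusted p was 1 as reported, 0 where backgrounds were subtracted, where all 6 arrays had to be above background and where eBayes used its trend and robust options, and between 0 and 1 when each replicate was left out. At an unadjusted p there were 808, of which 44.7% were higher, 1798 under median scaling (6.17% higher), 2075 with no filter, which tests 52902 probes, and 838 in the scaling of the authors (26.0% higher). Without control replicate 2, 54.3% were higher. The median difference of all tested probes was -0.083 under median scaling and -0.065 in the scaling of the authors, against -0.0068 as reported. A lower limit was the 95th percentile of the blank spots, taken on the background-corrected intensity of each array. Above it, 9 of 13 member probes were read on at least 3 arrays (69.2%, against 66.5% of all probes), adding HSD11B1, HSD11B2, FKBP5 and NCOA1. The same percentile of the blank spots' signal strength, not used for this count, was 0.778 to 0.797. No paired analysis was possible because the labels give no replicate numbers that link stallions of the 2 groups.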

Other observations

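The epithelial genes SCNN1B, a subunit of the sodium channel that NR3C2 controls in the kidney, and AQP2, the water channel of the collecting duct, were read above background in all 6 stallions, while SCNN1A was above background on 0 arrays. SCNN1B averaged 7.96 ± 0.18 in dexamethasone stallions and 7.89 ± 0.02 in control stallions (log2, SD, n = 3 each). AQP2 averaged 9.42 ± 0.14 in dexamethasone stallions and 9.23 ± 0.11 in control stallions. The differences were 0.07 ± 0.10 and 0.19 ± 0.10 (SE, limma adjusted p = 0.999 for each), and the groups overlapped for both. Whether these human probes read the horse transcripts of these genes was not tested.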
